A study of Mus musculus with 50 samples.

Results

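Basal mammary epithelial cells of mice that express DN-Clim were compared with basal cells of their wild-type (WT) littermates, on 4 of the 50 arrays of the series, 2 DN-Clim and 2 WT. The arrays were chosen by their labels alone, and all were of cells sorted from CB6F1 mice at 10 weeks of age. DN-Clim is a transgene driven in basal cells by the promoter of keratin 14, and it encodes the LIM interaction domain of the Clim proteins with a nuclear localization signal and a Myc tag. Cells were freed of CD31, CD45 and TER119 positive cells, and the basal population was gated as CD29 high and CD24 positive. Luminal cells sorted in the same experiment, 2 WT and 2 DN-Clim arrays, lent their spread to the test and served as a comparison. The titles of the luminal arrays give CD29 high and their descriptions CD29 low. The labels call the 2 arrays of a group biological replicates, and the methods name 2 littermates of each genotype. Neither says which basal and luminal arrays came from the same mouse.

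Clims (Ldb1, also called Clim2, and Ldb2, also called Clim1) are cofactors without DNA binding of their own. They bind the LIM domains of LIM homeodomain and LIM-only proteins and, by pairing with one another, bring together the transcription factors attached to them, and a fragment with the LIM interaction domain alone occupies LIM domains without that pairing. Basal cells form the outer layer of the mammary duct, lie on the basement membrane, contract to eject milk and include cells with stem cell activity, and Wnt ligands are among the signals that maintain them.

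Values are PLIER intensities, a linear scale with 1 value for each probe set. A gene was tested where its probe set reached 150 on at least 1 sorted-cell array, which left 12471 genes. A difference is DN-Clim minus WT on the log2 scale with its standard error, and a gene passed the test at an adjusted p under 0.05 in limma over all these genes. In sorted cells the standard error pools the spread of all 8 arrays. For a gene whose luminal arrays differ widely it can thus far exceed the spread of the basal arrays. A level on an array does not separate fewer cells of a type from less RNA per cell. The 8 arrays had median intensities of 119.4 to 129.7. WT basal arrays correlated with each other at 0.961 over genes and DN-Clim basal arrays at 0.952, WT with DN-Clim basal arrays at 0.923 to 0.952, and basal with luminal arrays at 0.562 to 0.681. DN-Clim basal replicate 1 stood apart in 2 ways. It had 1.94% of values under 1, against 0.73% to 1.09% on the other arrays, and it carried more luminal signal, with 12 of 15 pan-luminal markers above both WT arrays, against 3 of 15 in replicate 2. Over all genes 24.7% lay above both WT arrays on replicate 1 and 33.5% on replicate 2. Krt18, a luminal keratin, was 1098 and 2251 in WT and 3224 and 1182 in DN-Clim basal cells. The sort itself was evident on every array in 2 basal keratins. Krt14 was 7320 to 8876 on the basal and 57.0 to 163.3 on the luminal arrays, and Krt5 was 5190 to 7389 against 43.0 to 83.1. Some luminal markers parted less. Krt8 was 5058 to 6665 on the basal and 11756 to 14496 on the luminal arrays, and Gata3 was 1421 to 2240 against 2440 to 3835. Krt18 parted more, at 9272 to 10731 on the luminal arrays. No probe set for the transgene was used. The endogenous Ldb1 probe set read 2575 and 3787 in WT and 2339 and 2407 in DN-Clim basal cells (-0.40 ± 0.18, adjusted p = 0.396 by limma), and the table does not say which stretch of the transcript it covers.

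In basal cells 9 genes fell in DN-Clim, 0.0722% of those tested, and 1 rose, 0.00802%. The 9 were the Wnt antagonist Wif1, the secreted proteins Lbp and Wfikkn2, and 6 genes known mainly from neurons or cell adhesion, Cacng7, Nlgn1, Lrrc4c, Brinp1, Syt9 and Pcdh7. The one that rose was Col6a3. Fold changes of the 9 ran from 3.09 to 15.4, and for each the 2 DN-Clim arrays lay below both WT arrays. Over all genes 17.8% were higher on both DN-Clim arrays than on both WT arrays and 32.7% were lower, and family and list counts below are read against these shares. The median difference over all genes was -0.084, and 1688 genes had an unadjusted p under 0.05. Leaving out 1 basal array gave 4 passing genes without WT replicate 1, 3 without WT replicate 2, 3 without DN-Clim replicate 1 and 16 without DN-Clim replicate 2. The methods' test for such arrays is Cyber-T. At an unadjusted p under 0.001 with a 1.5-fold change it gave 204 higher genes (1.64%) and 222 lower genes (1.78%). That threshold is the one in the legends of the paper's gene lists, while its supplemental methods give 0.01. Counts under this rule, looser than the limma test, are named as such. On simulated data this rule also called many genes that had not been changed. The simulated spread pooled that of the basal and luminal groups, so it may differ from that of the basal arrays. The share of false calls among the real ones is thus unknown.

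**Figure D1:**
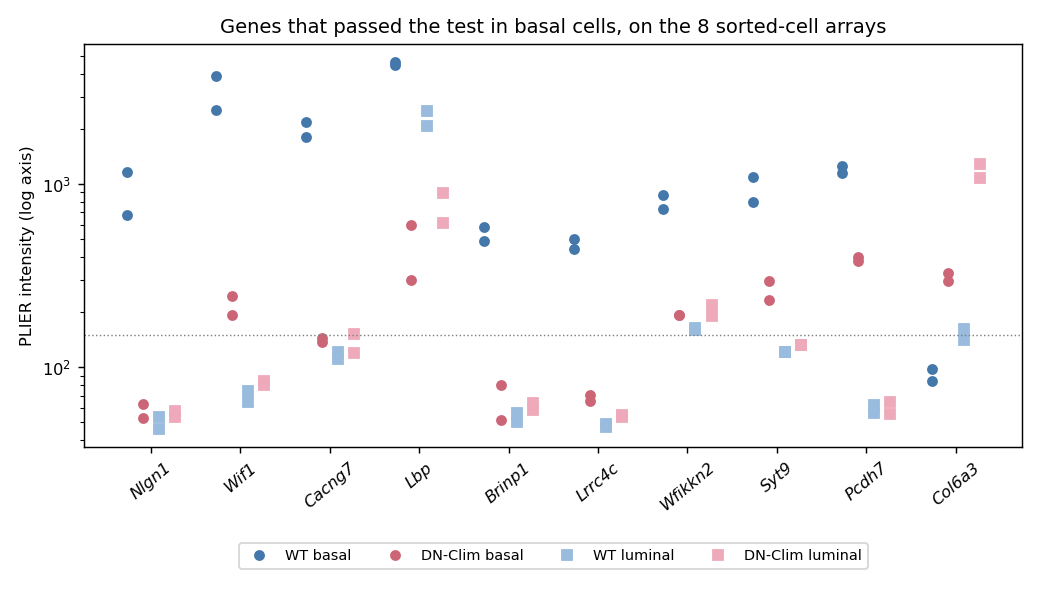
PLIER intensity (log axis) of the 10 genes that passed the test, 1 point for each of the 8 sorted-cell arrays, with a dotted line at the filter of 150. For the 9 lowered genes both WT basal points lie above both DN-Clim basal points, and for Col6a3 the order is turned.

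Wif1 encodes a secreted protein that binds Wnt ligands outside the cell. Its intensity was 2545 and 3906 in WT and 193.8 and 244.1 in DN-Clim basal cells. The groups lay far apart, and the DN-Clim arrays were 14.5-fold lower (-3.86 ± 0.23, adjusted p = 0.00447). Without DN-Clim replicate 1 its adjusted p was 0.0523, the only 1 of 15 alternatives in which it did not pass. Lbp encodes the lipopolysaccharide binding protein, which hands bacterial lipopolysaccharide to its receptor complex. Its intensity was 4460 and 4621 in WT and 594.7 and 300.9 in DN-Clim, with no overlap (-3.42 ± 0.33, adjusted p = 0.0238). Wfikkn2 encodes a secreted protein with protease inhibitor domains that binds myostatin and related TGF-beta family ligands. It was 732.6 and 873.5 in WT and 193.2 and 193.5 in DN-Clim, 4.14-fold lower (-2.05 ± 0.15, adjusted p = 0.00717).

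Cacng7 encodes a transmembrane protein of the calcium channel gamma family that also accompanies AMPA receptors. It was 1806 and 2179 in WT and 136.8 and 144.9 in DN-Clim basal cells, 14.1-fold lower (-3.82 ± 0.18, adjusted p = 0.00146), and it passed in all 15 alternatives run. Nlgn1, a neuroligin that binds neurexins across the synapse, had intensities of 1159 and 680.7 in WT and 63.4 and 52.6 in DN-Clim. The difference was 15.4-fold (-3.94 ± 0.29, adjusted p = 0.00717), larger than the spread between the WT arrays. Lrrc4c, a leucine-rich repeat ligand of netrin-G, was 504.5 and 442.3 in WT and 70.4 and 65.2 in DN-Clim (-2.80 ± 0.21, adjusted p = 0.00717). These 2 genes belong to the neurexins, neuroligins and synaptic leucine-rich repeat proteins, of which 31 were measured and 2 fell. The median difference of those 31 was 0.049. On both DN-Clim arrays 10 of them were higher and 8 lower, against 17.8% and 32.7% of all genes.

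Brinp1, a gene of the nervous system named for induction by BMP and retinoic acid, was 585.0 and 490.4 in WT and 51.8 and 79.6 in DN-Clim (-3.06 ± 0.26, adjusted p = 0.0164). Syt9, a synaptotagmin and calcium sensor of vesicle release, was 796.7 and 1089 in WT and 234.3 and 294.4 in DN-Clim (-1.83 ± 0.20, adjusted p = 0.0415). Pcdh7, a protocadherin, was 1154 and 1254 in WT and 378.2 and 399.6 in DN-Clim (-1.63 ± 0.16, adjusted p = 0.0238). All 3 separated the groups completely. DN-Clim basal values of Nlgn1, Lrrc4c and Brinp1 lay under every array's median intensity and near their luminal values of 46.0 to 63.7. The table gives no detection calls, so their folds may be only lower bounds. Syt9, Pcdh7 and Col6a3 passed in none of the 4 fits that left out a basal array, with adjusted p from 0.0857 to 0.225 for Syt9, 0.0889 to 0.215 for Pcdh7 and 0.0967 to 0.194 for Col6a3. Brinp1, Lrrc4c and Wfikkn2 each passed in 1 of those 4 fits, Lbp and Nlgn1 in 2 and Wif1 in 3.

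Relatives of these genes did not pass. Cacnb4, a beta subunit of voltage-gated calcium channels, was 601.3 and 2491 in WT and 87.1 and 74.3 in DN-Clim (-3.93, adjusted p = 0.115), with WT arrays that differed widely. Cacna1d, a pore-forming subunit, was 599.0 and 706.3 in WT and 228.6 and 231.7 in DN-Clim (-1.50, adjusted p = 0.0828). Of 12 calcium channel subunits measured 1 fell and none rose. On both DN-Clim arrays 5 were lower and 4 higher, against 32.7% and 17.8% of all genes, and 4 were lower by the Cyber-T rule. The median was -0.22. The 6 measured clustered beta protocadherins, cell surface proteins that give neurons individual identities, were all lower on both DN-Clim arrays, against 32.7% of all genes, with a median of -1.30. Pcdhb2 was 198.3 and 220.1 in WT and 42.5 and 51.3 in DN-Clim (-2.16, adjusted p = 0.0770), none of the 6 passed the test, and whether their probe sets also read closely related members was not tested. Of 7 Fat, Dachsous and Celsr cadherins of planar cell polarity 4 were lower and 0 higher on both arrays, with a median of -0.19 and none passing. The lowest were Dchs1 at 535.6 and 778.9 in WT and 227.4 and 158.9 in DN-Clim, and Fat4 at 398.6 and 696.8 against 211.8 and 194.2, with adjusted p of 0.181 and 0.275.

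Promoter sequence was matched by symbol for 8 of the 9 lowered genes (9 windows, from 250 bases before to 50 after the start, RefSeq, build GRCm38.p6), and those of Wif1, Cacng7 and Wfikkn2 are shown because these genes had the smallest p of a Wnt antagonist, a channel gene and a growth factor antagonist. Both strands were searched for the LIM homeodomain core TAATTA, the GATA core AGATAA and the E-boxes CAGGTG and CAGCTG, and capitals mark a match or its reverse complement.
Wif1, chr10:121033754-121034053, plus strand: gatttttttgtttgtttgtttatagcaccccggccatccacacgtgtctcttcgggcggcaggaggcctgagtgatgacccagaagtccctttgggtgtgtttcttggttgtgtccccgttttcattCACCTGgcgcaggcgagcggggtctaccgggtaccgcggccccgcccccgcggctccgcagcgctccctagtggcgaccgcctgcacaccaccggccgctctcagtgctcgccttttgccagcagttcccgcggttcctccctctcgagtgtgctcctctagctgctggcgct
Cacng7, chr7:3332575-3332874, plus strand: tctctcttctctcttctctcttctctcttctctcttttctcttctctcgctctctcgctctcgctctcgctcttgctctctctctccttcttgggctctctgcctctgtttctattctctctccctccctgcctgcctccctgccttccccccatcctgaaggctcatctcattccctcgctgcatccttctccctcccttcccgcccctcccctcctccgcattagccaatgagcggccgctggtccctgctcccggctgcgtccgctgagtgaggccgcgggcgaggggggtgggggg
Wfikkn2, chr11:94242530-94242829, minus strand: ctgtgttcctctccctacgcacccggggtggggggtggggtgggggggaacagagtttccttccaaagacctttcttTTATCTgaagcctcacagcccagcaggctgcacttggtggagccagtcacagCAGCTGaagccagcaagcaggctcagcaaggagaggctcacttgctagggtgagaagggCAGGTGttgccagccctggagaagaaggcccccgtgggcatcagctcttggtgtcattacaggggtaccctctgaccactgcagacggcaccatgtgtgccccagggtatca
The Wif1 window holds 1 CAGGTG E-box, read here as its reverse complement, the Cacng7 window none of the 4 motifs, and the Wfikkn2 window a GATA core on the other strand and both E-boxes. TAATTA was in 0 of the 9 windows and in 2.5% of the 12665 windows of all tested genes, AGATAA in 1 of 9 against 6.5%, CAGGTG in 3 of 9 against 18.7% and CAGCTG in 1 of 9 against 15.6%. These are matches of letters only.

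The gene that rose, Col6a3, encodes a chain of collagen VI, a fibroblast product. It was 97.9 and 83.8 in WT and 296.7 and 326.0 in DN-Clim basal cells (1.78 ± 0.17, adjusted p = 0.0238). In luminal cells the same probe set went from 162.1 and 140.3 to 1286 and 1083 (2.97 ± 0.17, adjusted p = 0.00559). The next genes by unadjusted p with at least a 1.5-fold change are given as values, since none passed. Thy1, a surface protein of fibroblasts and T cells, was 127.5 and 154.6 in WT and 740.4 and 574.1 in DN-Clim (adjusted p = 0.0589). Gsc, the homeobox gene goosecoid, was 111.4 and 105.3 in WT and 516.1 and 334.2 in DN-Clim (adjusted p = 0.0589), and Tuba8, an alpha tubulin, was 62.1 and 76.8 against 283.5 and 267.4 (adjusted p = 0.0600). Krt19, a luminal keratin, was 475.3 and 335.4 in WT and 2331 and 1236 in DN-Clim (adjusted p = 0.115). The other 7 were Folr2, Cyp4b1, Rbp4, Acsbg1, Rarb, C2cd4b and Olfml2b, and Folr2 is on the macrophage list used below. In WT cells, however, Folr2 was 31 and 28.6 on basal but 654 and 474.1 on luminal arrays. Rbp4, Acsbg1, C2cd4b and Olfml2b were also higher on both WT luminal arrays than on both WT basal arrays, while Cyp4b1 and Rarb were lower. Acsbg1 and Rbp4 stayed under the filter on both DN-Clim basal arrays. Whether luminal signal bears on these increases was not tested. On the lower side the same rule added Adgrg7 (-2.13, adjusted p = 0.0770), Itprid1 (-1.78, adjusted p = 0.0589) and Kif1a, a kinesin motor of axonal transport (-1.67, adjusted p = 0.0770).

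Markers of other cell types were higher in the DN-Clim basal samples. All 18 endothelial markers measured were higher on both DN-Clim arrays, against 17.8% of all genes, with a median difference of 1.20, as were 8 of 10 adipocyte, 8 of 9 macrophage and 15 of 21 fibroblast markers, with medians of 1.65, 1.49 and 1.08. Of these markers Col6a3 alone passed the test, while 12 endothelial, 6 adipocyte, 6 macrophage and 12 fibroblast markers were higher by the Cyber-T rule. Several of the markers, among them Kdr, Tek, Aqp7, Laptm5 and Lum, reached the filter of 150 only on DN-Clim basal arrays. They were counted because they were high there, so these shares and medians are partly set by the filter. The summed endothelial signal was 3024 and 2957 in WT and 8996 and 5471 in DN-Clim, and the macrophage sum 985 and 959 against 2459 and 1991. The summed fibroblast signal overlapped, at 19802 and 27505 in WT and 30000 and 24670 in DN-Clim and the differences of its members Postn, Mmp2 and Dcn were -0.21, -0.19 and -0.30. Others of the lists stood far apart. Lum, a proteoglycan of fibroblasts, was 64.0 and 48.8 in WT and 678.7 and 359.9 in DN-Clim. Cdh5, the endothelial cadherin, was 222.8 and 239.8 against 1084 and 617.1. C1qb, a complement component of macrophages, was 102.1 and 63.6 against 589.6 and 495.8. Some defining markers stayed under the filter on all sorted arrays. The adipocyte hormone Adipoq was 49.2 and 52.0 in WT and 54.0 and 51.6 in DN-Clim basal cells, with overlap. The adipocyte markers Plin4, Lep, Cidec and Retn also overlapped, as did the endothelial Erg, while the endothelial Sox17 and Flt4 were higher on both DN-Clim arrays. The macrophage receptor Csf1r was 85.1 and 84.8 in WT and 124.5 and 126.3 in DN-Clim, and the leukocyte antigen Ptprc 56.3 and 68.5 against 94.2 and 91.1. Both were thus higher on both DN-Clim arrays, as were Tyrobp and Mrc1, though at low intensities. The macrophage marker Cd68 overlapped, at 356.2 and 383.9 in WT and 398.6 and 336.2 in DN-Clim. So did Adgre1, under the filter at 48.1 and 49.7 against 49.6 and 53.5. Fabp4 and Cd36, of the adipocyte list, are also made by endothelium. The part of these cells in the higher genes was not tested. The 9 lowered genes are in none of these lists, which hold markers of other cell types only. Whether cell composition bears on their decrease was not tested either.

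**Figure D2:**
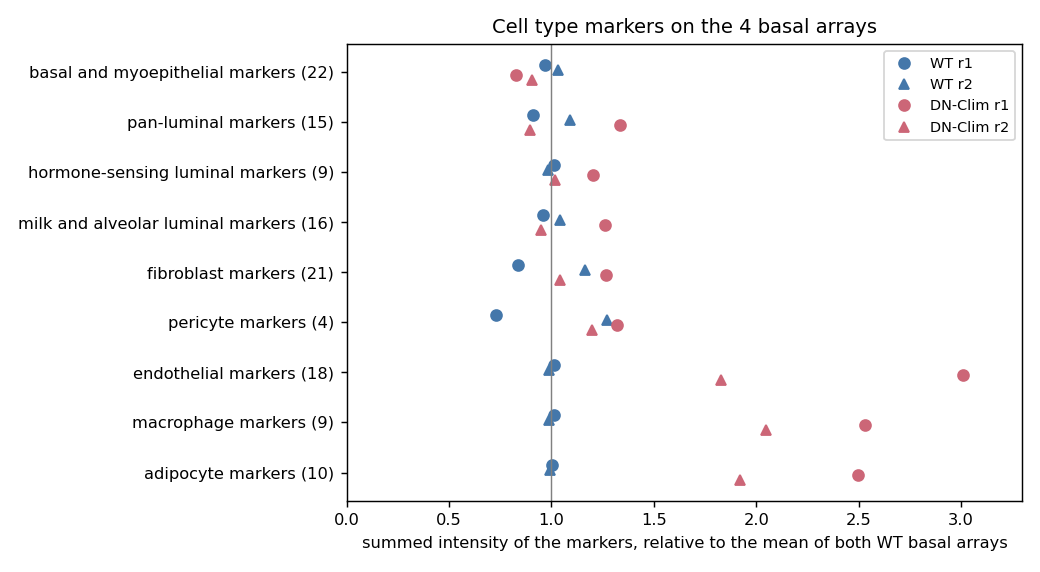
Summed intensity of cell type markers on the 4 basal arrays, relative to the mean of both WT basal arrays, 1 point for each array. Endothelial, adipocyte and macrophage sums lie above WT on both DN-Clim arrays, the pan-luminal sum only on replicate 1, and the fibroblast sums overlap.

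Most genes that mark the basal cell itself had lower means in DN-Clim, though none passed the test, and some were level. The contractile actin Acta2 was 12103 and 12297 in WT and 12073 and 12182 in DN-Clim (-0.01 ± 0.51, adjusted p = 0.996), and the basal transcription factor Trp63 was 2248 and 2291 against 2328 and 2378. The Acta2 standard error includes luminal arrays at 265.6 to 863.9, while its log2 standard deviations were 0.016 in WT and 0.009 in DN-Clim basal cells. Of 22 basal and myoepithelial markers 18 had a lower mean, and their median was -0.16. On both DN-Clim arrays 12 were lower and 1 higher, against 32.7% and 17.8% of all genes. The lowest was the oxytocin receptor Oxtr, at 4713 and 5980 in WT and 3248 and 2901 in DN-Clim (-0.79, adjusted p = 0.417). The summed signal of the 22 was 117010 and 124962 in WT and 99889 and 109500 in DN-Clim. Of 30 genes of the contractile apparatus and cGMP signaling 20 were lower on both DN-Clim arrays and 9 were lower by the Cyber-T rule, with a median of -0.26 and none passing. Prkg1, the cGMP-dependent kinase that relaxes smooth muscle, was 4150 and 4378 in WT and 2049 and 1782 in DN-Clim (-1.16, adjusted p = 0.115). Of 29 basement membrane genes 10 were lower and 3 higher on both arrays, against 32.7% and 17.8% of all genes, with a median of -0.16. Fras1, which anchors epithelium to its basement membrane, was 662.0 and 765.0 in WT and 94.2 and 211.0 in DN-Clim (-2.34, adjusted p = 0.127), the widest gap of this list.

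**Figure D3:**
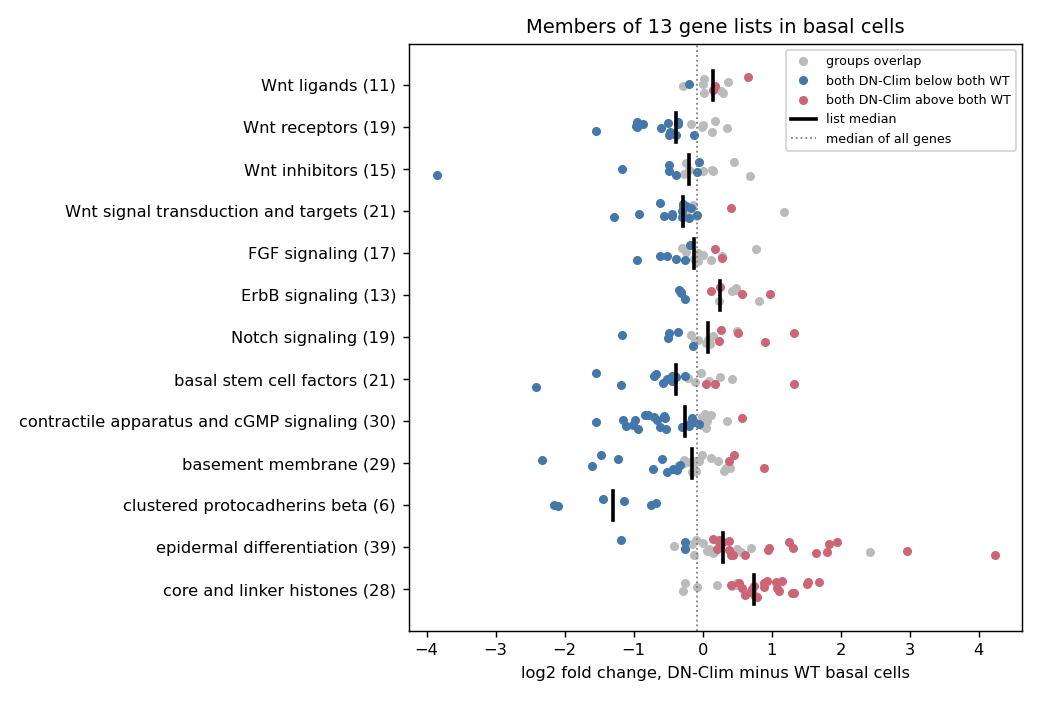
Log2 fold change, DN-Clim minus WT basal cells, of the measured members of 13 gene lists, 1 point for each gene, coloured by whether the groups overlap, with the list median as a bar and the median of all genes (-0.084) as a dotted line. The beta protocadherin points all lie to the left of 0.

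Wnt signaling runs from secreted ligands through Frizzled receptors and Lgr co-receptors to beta-catenin, and the antagonists act outside the cell or on the receptors. Among 11 ligands the median difference was 0.15, and Wnt5a, at 858.5 and 622.5 in WT and 835.9 and 1052 in DN-Clim, overlapped. Among 19 receptors and co-receptors 13 were lower on both DN-Clim arrays and 0 higher, with a median of -0.38. On replicate 1 alone 15 of 19 lay below both WT arrays and on replicate 2 alone 14 of 19, against 49.6% and 41.9% of all genes. Both counts contain the 13 and come from the same values, so they are no separate check. No receptor passed the test. Lgr5, which binds R-spondins and marks stem cells in several epithelia, was 3329 and 3649 in WT and 1919 and 745.5 in DN-Clim. Both DN-Clim arrays were lower, but they differed widely between themselves (-1.54 ± 0.66, adjusted p = 0.371), and the 95% interval ran from -3.11 to 0.03. Fzd7 was 3531 and 5184 in WT and 2326 and 2086 in DN-Clim (-0.96, adjusted p = 0.241), and Fzd1 1459 and 937.1 against 597.9 and 605.8 (-0.96, adjusted p = 0.259). Of 15 inhibitors Wif1 alone fell, 7 were lower on both arrays and 0 higher, and the median was -0.20. Dact1, an intracellular antagonist, was 670.4 and 745.6 in WT and 235.2 and 415.6 in DN-Clim (-1.18, adjusted p = 0.304). Of 21 genes of signal transduction and targets 15 were lower on both arrays, with a median of -0.28. Among targets Axin2 was 282.3 and 198.7 in WT and 133.8 and 192.2 in DN-Clim and Myc was 3550 and 4227 against 2696 and 2361, with adjusted p of 0.374 and 0.360, while Lef1 was slightly higher on both DN-Clim arrays.

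**Figure D4:**
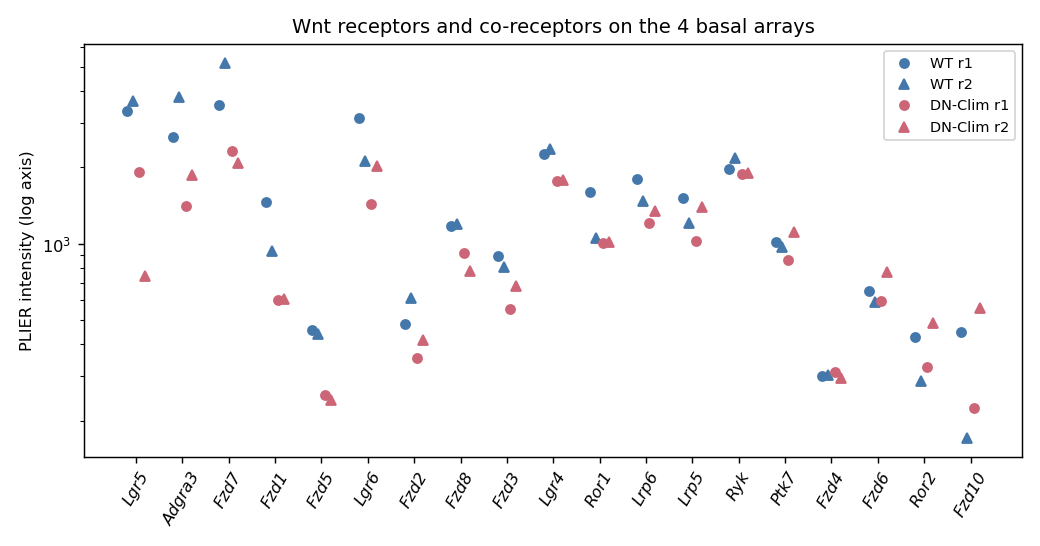
PLIER intensity (log axis) of the measured Wnt receptors and co-receptors on the 4 basal arrays, 1 point for each array. Lgr5, Fzd7 and Fzd1 have both DN-Clim points under both WT points, while Fzd10, Ror2 and Ptk7 overlap.

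Among Clims and their partners 4 of 14 were lower and 4 higher on both DN-Clim arrays, against 32.7% and 17.8% of all genes. Their median was 0.05, and none passed. The LIM-only protein Lmo4 was 2559 and 2753 in WT and 2037 and 1963 in DN-Clim (-0.41 ± 0.21, adjusted p = 0.428). Ldb2 was 138.6 and 119.4 in WT and 449.0 and 309.3 in DN-Clim (1.53 ± 0.38, adjusted p = 0.280), and whether this goes with the higher endothelial sums was not tested. The receptor Fgfr2 was 2390 and 2589 in WT and 1798 and 2021 in DN-Clim (-0.38 ± 0.33, adjusted p = 0.615), and Fgfrl1, a receptor without a kinase domain, was 1479 and 1945 against 918.4 and 829.6 (-0.96, adjusted p = 0.194). The Fgfr2 standard error includes WT luminal arrays at 2837 and 5682, while its log2 standard deviations were 0.081 in WT and 0.119 in DN-Clim basal cells. Of 17 FGF genes 6 were lower and 2 higher on both arrays, against 32.7% and 17.8% of all genes. The ErbB receptors Erbb2 and Erbb3 had differences of -0.31 ± 0.17 and 0.26 ± 0.19, and Gata3, Esr1 and Pgr, luminal regulators and hormone receptors, of -0.36, -0.35 and -0.03, with adjusted p from 0.450 to 0.977. Among Notch ligands Dll1 was 1671 and 2514 in WT and 830.5 and 994.4 in DN-Clim (adjusted p = 0.276), and Dll4, a ligand of endothelium, was 160.0 and 132.6 against 492.9 and 267.8 (adjusted p = 0.301). Of 21 basal stem cell factors 12 were lower and 3 higher on both arrays. The transcription factor Bcl11b was 818.5 and 902.1 in WT and 349.6 and 409.9 in DN-Clim (-1.18, adjusted p = 0.0828), and Snai2 was 2036 and 2982 against 1512 and 1506 (-0.71, adjusted p = 0.449).

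Epidermal differentiation genes serve the cornified layer of skin. On both DN-Clim arrays 22 of 39 were higher and 3 lower, against 17.8% and 32.7% of all genes. Their median was 0.30, and none passed. Some members, among them Dsg3 and Gjb6, reached the filter only on DN-Clim basal replicate 2. They were counted because they were high there, so these counts and the median are partly set by the filter. Sprr1a, a cornified envelope precursor, was 106.0 and 78.0 in WT and 4122 and 704.5 in DN-Clim (4.23, adjusted p = 0.175). The DN-Clim arrays differed widely from each other here, and 1 member of the list passed without DN-Clim replicate 2. Core and linker histones were higher on both arrays for 21 of 28, with a median of 0.75, and their near-identical copies make single genes uncertain. Cell cycle and replication genes parted the DN-Clim arrays. On replicate 2, 36 of 39 were above both WT arrays, and on replicate 1, 4 of 39, against 33.5% and 24.7% of all genes. The licensing factor Mcm2 was 467.0 and 156.4 in WT and 383.7 and 944.4 in DN-Clim. The first DN-Clim value lay within the WT range and the second above it, and 4 of 39 were higher on both DN-Clim arrays.

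The DN-Clim effect was then compared between basal and luminal cells, by the difference of the 2 effects. The difference of the effects passed for 6 genes, 0.0481% of those tested, and 607 had an unadjusted p under 0.05. Among them were Wif1, Cacng7, Nlgn1, Lrrc4c and Wfikkn2, for which the difference largely restates the basal decrease. In luminal cells Wif1 was 64.5 to 84.1 on all 4 arrays, Cacng7 110.3 to 152.0, Nlgn1 46.0 to 57.8, Lrrc4c 46.9 to 54.9 and Wfikkn2 160.3 to 217.9, under the filter or near it in both genotypes. At such levels a luminal decrease could hardly be measured, so the test does not show that the effect of DN-Clim on these genes differs between the populations. DN-Clim basal levels of Nlgn1 were within or just above that luminal range, and those of Cacng7 within it. The sixth gene, the membrane protease Tmprss11a, was named after its values were seen. It rose in luminal cells from 45.1 and 38.0 to 958.4 and 1667 (4.93, adjusted p = 0.00755) and stayed at 25.8 to 36.5 on the basal arrays. Lbp was the one lowered gene with a clear luminal level, 2069 and 2520 in WT and 616.4 and 898.0 in DN-Clim (-1.62 ± 0.33, adjusted p = 0.245), and its effects did not differ past the threshold (adjusted p = 0.627). These counts ran from 0 to 5 when an array was left out, with 0 without WT basal replicate 2, without DN-Clim basal replicate 1 and without DN-Clim basal replicate 2.

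**Figure D5:**
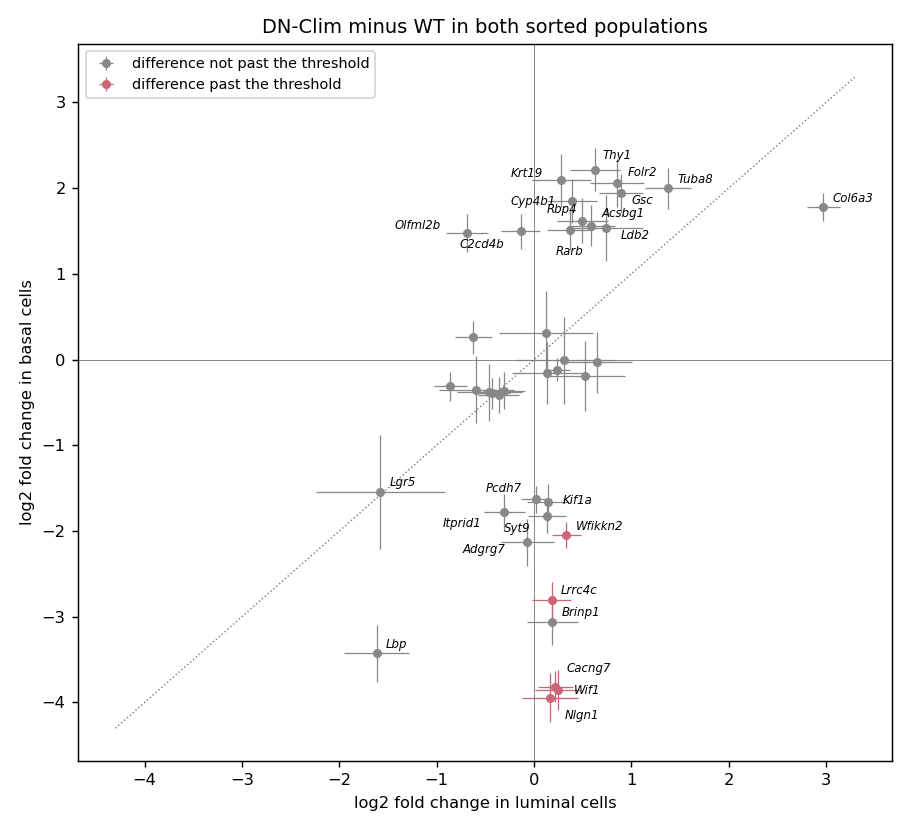
Log2 fold change, DN-Clim minus WT, in basal cells against that in luminal cells for the 39 named genes, with standard errors as bars and a dotted line where both effects are equal. Wif1, Cacng7, Nlgn1, Lrrc4c and Wfikkn2, coloured, lie far under the line at luminal differences near 0, while Lbp and Lgr5 lie low on both axes.

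Arrays of laser-captured ducts and terminal end buds (TEBs, the growing tips of ducts), 21 each over 4 ages, hold whole epithelium of the same genotypes, and the labels do not say whether their 10-week mice were those sorted. In ducts 8.52% of 13362 genes tested were higher and 6.22% lower in DN-Clim, and in TEBs 0.382% and 0.778%. Of the 9 genes lowered in basal cells 6 could be tested there. Wif1 fell in ducts (-1.01 ± 0.15, adjusted p = 0.00180) and in TEBs (-0.96 ± 0.19, adjusted p = 0.0210), and in ducts also without 2 WT arrays whose labels conflict (-1.18, adjusted p = 0.00103). Cacng7 and Pcdh7 fell in ducts by smaller amounts (-0.27 and -0.40, adjusted p = 0.0362 and 0.0221) and did not pass without those arrays (adjusted p = 0.156 and 0.139). In TEBs neither passed (adjusted p = 0.221 and 0.175). Lbp, Lrrc4c and Syt9 passed in neither structure. Lbp had -0.19 ± 0.28 in ducts (adjusted p = 0.650) and -0.27 ± 0.30 in TEBs (adjusted p = 0.693). Lrrc4c had -0.36 in both, and Syt9 -0.25 in ducts and -0.52 in TEBs, with adjusted p from 0.0718 to 0.266. Lgr5, which missed the threshold in sorted basal cells, fell in both structures (-0.97, adjusted p = 0.00673 and -1.002, adjusted p = 0.0285), with an adjusted p of 0.0532 in ducts without those arrays. Gsc rose in ducts (1.34 ± 0.09, adjusted p = 1.507e-07) and also without the conflicting arrays (1.28, adjusted p = 1.741e-06). In TEBs it did not pass (1.71 ± 0.59, adjusted p = 0.162). Col6a3, Thy1, Tuba8 and Krt19 passed in neither structure, and Col6a3 had -0.12 in ducts and -0.07 in TEBs. Of the 222 genes lower in basal cells by the Cyber-T rule 201 were tested, and 60 of them fell in ducts, 29.9% against 6.1% of all genes tested in both. Without the conflicting arrays these were 19, 9.5% against 0.8%, and in TEBs 24, 11.9% against 0.8%, or 37, 18.4% against 1.5%, when the first WT TEB array at 6 weeks was left out. Of the 204 genes higher by that rule 201 were tested, and 14 rose and 21 fell in ducts, 7% and 10.4%, against 9.2% and 6.1% of all genes tested in both. The order turned without the conflicting arrays, where 6 rose and 3 fell, and in TEBs 5 rose and 1 fell. The endothelial, fibroblast, adipocyte and macrophage lists that were higher in sorted basal cells had medians of -0.24 to -0.26 in ducts. In TEBs their medians were -0.16 to -0.22. Medians over all genes were 0.038 in ducts and -0.006 in TEBs, and the duct medians include the conflicting arrays.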

How the data were processed

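RNA was hybridised to Affymetrix Mouse Gene 1.0 ST arrays, and samples were grouped by their labels. The deposited values are linear intensities, 1 for each probe set, made by the authors with PLIER. The methods then took log2, centred the values and set unit variance, steps the linear table does not hold. The PLIER version and its background correction are not stated. Probe sets under 1 were set to 1, log2 was taken, sets with several symbols were left out, and the brightest probe set of a gene was kept. Group means of the 8 sorted arrays were fitted in limma 3.58.1 (R 4.3.3) (trended variance, p-values adjusted by Benjamini-Hochberg), and captured arrays likewise with a filter of 200. The script was tested on simulated data. Named genes were up to 12 in each direction that passed, filled by smallest p at 1.5-fold or more, called list members and genes named in the paper. Members, lists and rules were chosen with earlier results of these data known. Deviations of same-numbered arrays correlated at -0.16 between WT and DN-Clim basal cells, so numbers were not taken to pair genotypes. They correlated at 0.289 between WT basal and luminal and 0.221 between DN-Clim basal and luminal arrays, and a fit with these pairs as mice (correlation 0.238) was an alternative. Columns left unmapped numbered 0. Array number limits the precision.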

Additional observations from a re-analysis of the deposited data

Results flagged for a closer look

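For 5 of the named genes the difference of the DN-Clim effects in basal and luminal cells passed limma's test. The differences of the log2 effects, basal minus luminal, were -4.04 for Cacng7 (adjusted p = 0.0108), -4.10 for Wif1 (adjusted p = 0.0312), -4.11 for Nlgn1, -2.98 for Lrrc4c and -2.38 for Wfikkn2 (adjusted p = 0.0421 each). Luminal intensities of these genes were 46.0 to 217.9 on all 4 luminal arrays, under or near the filter of 150 in both genotypes, and these values do not show that DN-Clim acts differently in the 2 populations.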

How the results depend on the processing

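The 10 genes in basal cells (1 higher, 9 lower) numbered 6 (1 and 5) with a filter of 300, 16 (3 and 13) with 16 added before log2, 14 (2 and 12) with no filter, and 10 (5 and 5, of which 5 shared) from the 4 basal arrays alone. Leave-one-out fits gave 3 to 16 in all, 0 to 8 higher and 2 to 8 lower. Cyber-T gave 426 (204 and 222) at an unadjusted p under 0.001 with 1.5-fold and 944 (404 and 540) at 0.01, where limma gave 62 (22 and 40) and 361 (107 and 254), without adjustment. With the replicate number as a block 9 passed (3 higher and 6 lower), 7 of them shared, and a crossed pairing, chosen after seeing the data as the numbers correlated negatively, gave 6 (0 and 6). The 6 genes whose effects differed between populations became 2 with quantile normalization, with a common mean and variance, with the filter of 300 and with the replicate block, 0 with the crossed pairing, and 0 to 5 in leave-one-out fits. Duct counts of 1970 became 229 without the conflicting arrays and 0 at 10 weeks alone, and TEB counts of 155 became 234 with quantile normalization, 291 without WT TEB replicate 1 at 6 weeks and 0 at 10 weeks alone. The causes were not tested. Both scalings moved the share of genes higher and lower on both DN-Clim arrays, to 21.9% and 26.1% with quantile normalization and 20.4% and 29.7% with a common mean and variance, from 17.8% and 32.7%. No called gene changed sign. With the mouse as a block, 10 and 7 passed in basal cells and between populations. With 2 arrays a group, smaller differences would not pass.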
